A study of Mus musculus with 6 samples.

Results

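The potassium channel subunits described here are all genes of the deposited table whose symbol starts with Kcn, without the Kcnq and Kcnh families. They are 85 of the 47480 genes of the table, 81 of them protein-coding and 4 antisense RNAs. The rule rests on the gene symbol alone, but it was chosen with earlier results of these data known. The study compared 2 areas of the ventromedial hypothalamus (VMH), named VMHpvlm and VMHpvll in the labels, by RNA sequencing of laser-captured tissue. All mice were females that carried VgluT2-cre, which drives Cre recombinase in glutamatergic neurons that express Slc17a6, and Ai6, a Cre-dependent green fluorescent reporter. Both areas thus came from the same genotype, and the labels give no treatment. The sources used here state neither the age of the mice, nor the number of animals per library, nor how the borders of the areas were drawn. Each area had 3 libraries, whose titles carry F19, F20 and KH_161103 in both areas, and values from an area are given below in that order.

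Potassium channels let potassium ions through the membrane of a cell and so set its resting potential, end its action potentials and pace its firing. Most pore-forming subunits belong to 1 of these kinds: voltage-gated subunits (Kv), inward rectifiers (Kir), two-pore channels that carry leak current, and channels opened by calcium or sodium inside the cell. Auxiliary subunits bind the pore and alter its gating or its transport to the membrane. The VMH controls feeding, energy use, defence and, in its ventrolateral part, female sexual behaviour, and most of its neurons are glutamatergic.

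Values are normalised read counts. The libraries held 7157831 to 11293159 reads, a ratio of 1.58 between the deepest and the shallowest, and 16632 to 30494 reads per library fell on the potassium channel subunits. This was 0.265%, 0.276% and 0.270% of the reads in VMHpvlm and 0.222%, 0.232% and 0.234% in VMHpvll. The share was higher in each VMHpvlm library than in any VMHpvll library. The single gene Gm42418 took 11.6% to 17.9% of the reads of a library. A count of 3 reads, taken as the limit that a count of 0 allows, corresponded to 2.72 to 4.47 normalised reads, which covers counting error only.

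The captured areas were whole tissue. Of 10 oligodendrocyte markers 9 were called higher in VMHpvll, and their summed level was 11972 to 13697 in VMHpvlm and 16138 to 17374 in VMHpvll. Of 10 astrocyte markers 4 were called higher in VMHpvll (summed level, mostly Slc1a2, 32472 to 34994 against 38092 to 43292), and of 10 endothelial and mural markers 6 were (1842 to 2181 against 2610.03 to 3190.04). Of 10 general neuron markers 4 were called higher in VMHpvlm and 1 in VMHpvll (36169.9 to 39129 against 31265 to 34992). The largest part of the difference in this sum came from Snap25, at a mean of 10258 in VMHpvlm and 7275 in VMHpvll. Without Snap25 the sums of the areas overlapped. The VMH neuron list held 7 markers called higher in VMHpvlm and 2 in VMHpvll (12274 to 12726 against 10466 to 10946). Within it Nr5a1 was 9.77-fold and Lmo3 4.16-fold higher in VMHpvlm, and Esr1 was 2.90-fold higher in VMHpvll. Of the 9 tested GABAergic markers 2 were called higher in VMHpvlm and 6 in VMHpvll, with a median log2 difference of -1.27. Gad1, Gad2, Slc32a1 and Dlx1 were 1.99-fold to 2.92-fold higher in VMHpvll. The 2 called higher in VMHpvlm were Calb2, at a mean of 2485 in VMHpvlm and 1136 in VMHpvll, and Npy, at 25.6 and 6.36. The summed level of the list (3730.2 to 4300.2 against 3905 to 4141) included both. None of the 10 microglia markers was called by limma, with 1 at an unadjusted p below 0.05 (0 called and 1 by edgeR, 0 and 0 by DESeq2), and their summed level was 1279 to 1394 against 1366 to 1527. The counts of the other lists are those of limma, which called 10.5% of all tested genes higher in VMHpvlm and 9.48% higher in VMHpvll. In either direction DESeq2 called 7 oligodendrocyte, 4 astrocyte, 2 endothelial and mural, 2 general neuron, 9 VMH neuron and 6 GABAergic markers. No marker of these lists was at 0 in all libraries. The part of these cell types in the results on the subunits was not tested. In such bulk samples, fewer cells of a type and less RNA per cell cannot be told apart.

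Of the 85 subunits, 61 reached the mean of 10 normalised reads needed for a test. By limma with Benjamini-Hochberg (BH) adjustment over all 14522 tested genes, 24 subunits were called higher in VMHpvlm and 11 higher in VMHpvll at an adjusted p below 0.05. These were 39.3% and 18.0% of the tested subunits, against 10.5% and 9.48% of all tested genes, and 57.4% against 20% in either direction. The median level was 243 normalised reads for the tested subunits and 183 for all tested genes. The median log2 difference was 0.16 for the subunits and 0.00 for all tested genes, and the median absolute difference was 0.38 against 0.15. The differences were mostly moderate. By the fitted log2 difference, 2 called subunits, Kcng1 and Kcng2, differed at least 2-fold, which is 3.28% of the subunits against 2.70% of all tested genes, and Kcng3 and Kcnv1 lay just under that limit. In 35 subunits (57.4%) the 3 libraries of an area lay entirely above those of the other, against 28.0% of all tested genes. These 35 included all called subunits except Kcnj10 and Kcnj16.

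The number of calls depended on the estimate of the spread. With 2 residual degrees of freedom per gene, limma drew its variances largely from genes of similar level, and with a constant, non-robust prior 5 subunits were called higher in VMHpvlm and 1 in VMHpvll, against 189 and 233 of all tested genes. The 6 were Kcnab1, Kcnb2, Kcnf1, Kcng2, Kcnj3 and Kcnk2.

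**Figure D1:**
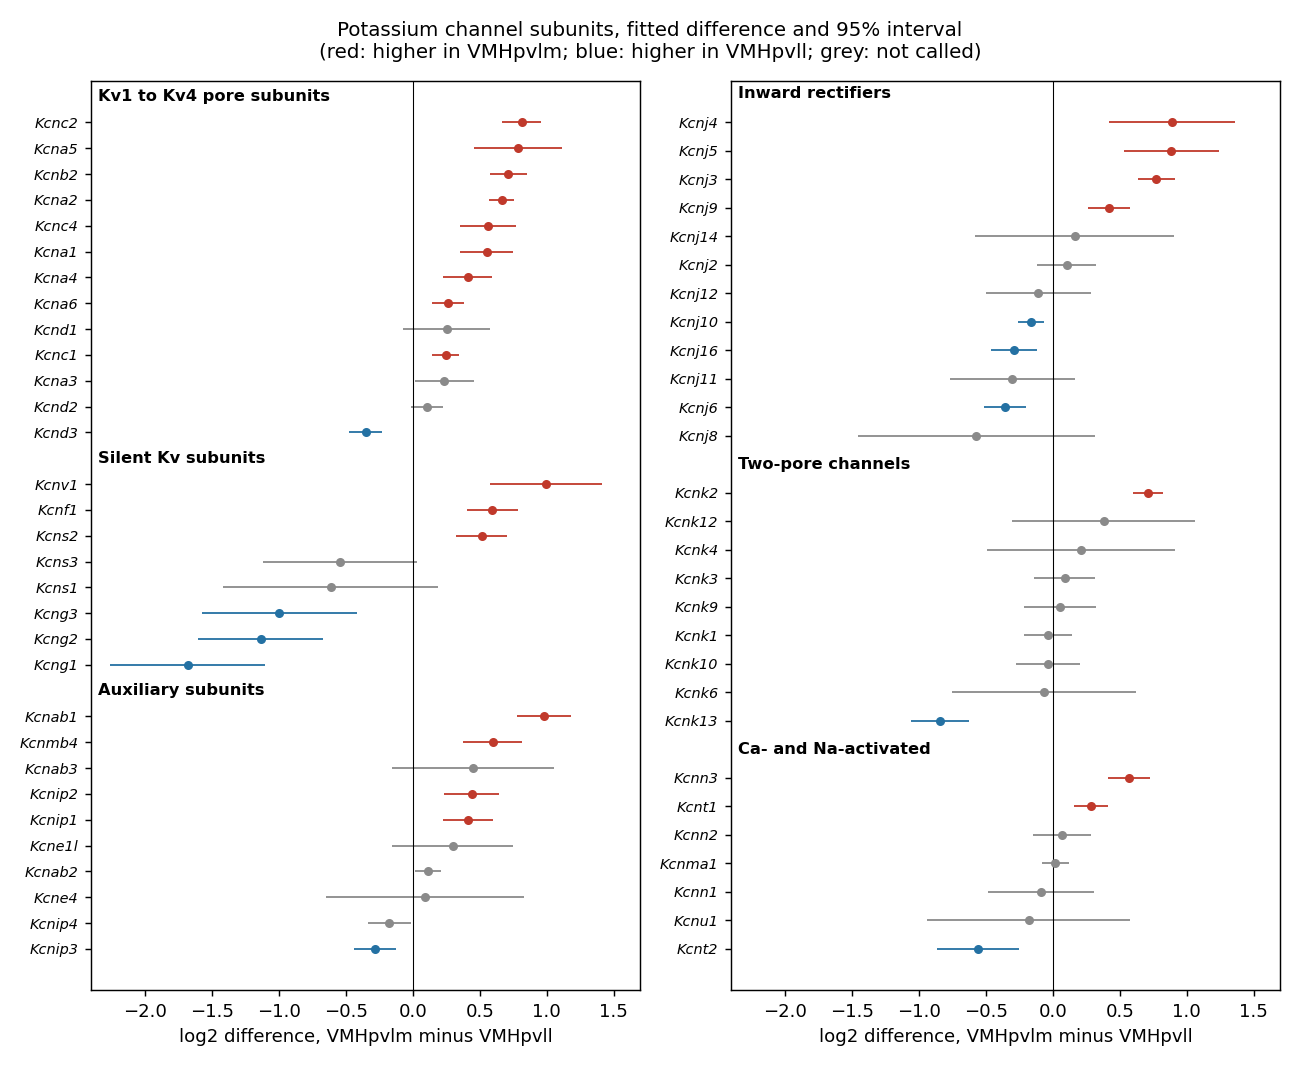
Fitted log2 difference (VMHpvlm minus VMHpvll) of 59 of the 61 tested potassium channel subunits, by class, with the 95% confidence interval from limma as a line. Kcnu1 is drawn with the calcium- and sodium-activated channels, although it is not counted as opened by either. Red marks 23 subunits called higher in VMHpvlm, blue 10 called higher in VMHpvll and grey 26 not called, among them 7 of the 9 two-pore subunits. The called share of the two-pore subunits was 22.2%, against 20% of all tested genes.

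Of 15 tested Kv1 to Kv4 pore subunits (Kcna, Kcnb, Kcnc and Kcnd) 10 were called higher in VMHpvlm and 2 higher in VMHpvll. Their median log2 difference was 0.41, and 80.0% were called in either direction, against 20% of all tested genes. The Kv1 genes carry low-threshold and delayed-rectifier currents, in many neurons on the axon. Of the 6 tested Kcna genes 5 were called, all higher in VMHpvlm. The summed level of the family per kilobase of exon was 721 ± 17.4 (SD, n = 3) in VMHpvlm and 524 ± 33.7 in VMHpvll.

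Kcna2, a delayed rectifier of axons and the Kcna gene with the highest level, stood at 3115, 3118 and 2942 normalised reads in VMHpvlm and 1788, 2195 and 1829 in VMHpvll. All VMHpvlm libraries were above all VMHpvll libraries, of which F20 was the highest. The means were 3058 ± 101 and 1937 ± 224 (SD, n = 3 each), 1.58-fold higher in VMHpvlm (limma log2 difference 0.66 ± 0.05 SE, BH-adjusted p = 2.96e-15). Kcna1, its frequent partner in axonal channels, stood at 348, 299.8 and 366 in VMHpvlm and 207, 238 and 245 in VMHpvll, without overlap and 1.47-fold higher in VMHpvlm (limma log2 difference 0.55 ± 0.10 SE, BH-adjusted p = 2.33e-05). The ratio of Kcna2 to Kcna1 per kilobase of exon was 3.59, 4.17 and 3.23 in VMHpvlm and 3.47, 3.70 and 3.001 in VMHpvll, so that the areas overlapped in the ratio although they did not in either gene. This ratio and the other ratios between subunits were chosen after the values were seen and carry no test.

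Kcna5, a delayed rectifier best known from heart muscle, was low in both areas, with 135, 129 and 116 normalised reads in VMHpvlm and 68.2, 61.1 and 94.0 in VMHpvll. Its areas did not overlap, and its mean was 1.71-fold higher in VMHpvlm (limma log2 difference 0.78 ± 0.16 SE, BH-adjusted p = 0.000248). Kcna4, which forms rapidly inactivating A-type channels, had means of 356 ± 14.8 and 268 ± 12.1 (SD, n = 3; limma log2 difference 0.41 ± 0.09 SE, BH-adjusted p = 0.000592). Kcna6, a delayed rectifier, was 1.20-fold higher in VMHpvlm (limma log2 difference 0.26 ± 0.06 SE, BH-adjusted p = 0.000811). Both changed the same way in every pair, and DESeq2 called neither (adjusted p = 0.0568 for Kcna4 and 0.0665 for Kcna6, the range over 14 alternatives being 0.000127 to 0.0833 and 0.000147 to 0.144). Kcna3, known from lymphocytes and also found in neurons, was the tested member not called, with a log2 difference of 0.24 (95% interval 0.016 to 0.46, limma adjusted p = 0.132). Without the F20 pair its limma adjusted p was 0.0311, and over the 14 alternatives the adjusted p ran from 0.0311 to 0.652. On the mm10 assembly Kcna1, Kcna5 and Kcna6 lie next to each other on chromosome 6, and all 3 were higher in VMHpvlm. Kcna6 lies at chromosome 6 from 126708329 to 126740674 and Kcna1 at chromosome 6 from 126640397 to 126646384. Kcna5 lies at chromosome 6 from 126532551 to 126535412. Kcna2, Kcna3 and Kcna10 also lie near each other, on chromosome 3. Of these Kcna2 was called higher in VMHpvlm, Kcna3 was not called and Kcna10 was not tested.

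Kcnb2, a pore subunit of the Kv2 family, which carries the main slow delayed rectifier of neuronal cell bodies and dendrites, stood at 792, 777 and 725 normalised reads in VMHpvlm and 448, 484 and 465 in VMHpvll. The areas were far apart relative to the spread within each, with means of 765 ± 35.5 and 466 ± 17.8 (SD, n = 3), 1.64-fold higher in VMHpvlm (limma log2 difference 0.71 ± 0.07 SE, BH-adjusted p = 2.17e-11). Per kilobase of exon its level was 50.4 ± 2.34 in VMHpvlm and 30.7 ± 1.17 in VMHpvll.

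The Kv3 family (Kcnc) makes fast, high-threshold channels that let neurons fire at high rates. Of this family Kcnc1, Kcnc2 and Kcnc4 are described. Kcnc2 stood at 839.7, 799.5 and 922 normalised reads in VMHpvlm and 447, 545 and 466 in VMHpvll. Every VMHpvlm library exceeded every VMHpvll library, and the mean was 1.76-fold higher (limma log2 difference 0.81 ± 0.07 SE, BH-adjusted p = 4.35e-12). Kcnc1, the family member with the highest read count, stood at 1537, 1489 and 1566 and 1245, 1367 and 1262, a difference of 1.19-fold (limma log2 difference 0.25 ± 0.05 SE, BH-adjusted p = 0.000234).

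Kcnc4, which forms A-type channels in this family, stood at 283, 348 and 241 in VMHpvlm and 201, 203 and 179.8 in VMHpvll (limma log2 difference 0.56 ± 0.10 SE, BH-adjusted p = 4.88e-05). The areas did not overlap, with VMHpvlm 1.49-fold higher.

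The Kv4 genes (Kcnd) carry the A-type current of cell bodies and dendrites. Of 3 tested genes 1 was called (33.3%, against 20% of all tested genes). Kcnd3 stood at 753, 818 and 810.2 in VMHpvlm and 1044, 937 and 1059.9 in VMHpvll. All VMHpvll libraries were above all VMHpvlm libraries, and the mean was 1.28-fold higher in VMHpvll (limma log2 difference -0.35 ± 0.06 SE, BH-adjusted p = 1.23e-05). Kcnd2, the most abundant Kcnd gene, stood at 1154, 1138 and 1044 in VMHpvlm and 1231, 931 and 958 in VMHpvll, where F19 was the highest of all 6 libraries and the other 2 the lowest. Its log2 difference of 0.11 (95% interval -0.013 to 0.23) was not called (limma adjusted p = 0.232). Without the F19 pair it was called (log2 difference 0.21, limma adjusted p = 0.027, range over the 14 alternatives 0.027 to 0.908). Kcnd1 was not called either (0.25, 95% interval -0.072 to 0.58, limma adjusted p = 0.309). The ratio of Kcnd3 to Kcnd2 per kilobase was 0.351, 0.386 and 0.417 in VMHpvlm and 0.456, 0.541 and 0.595 in VMHpvll.

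**Figure D2:**
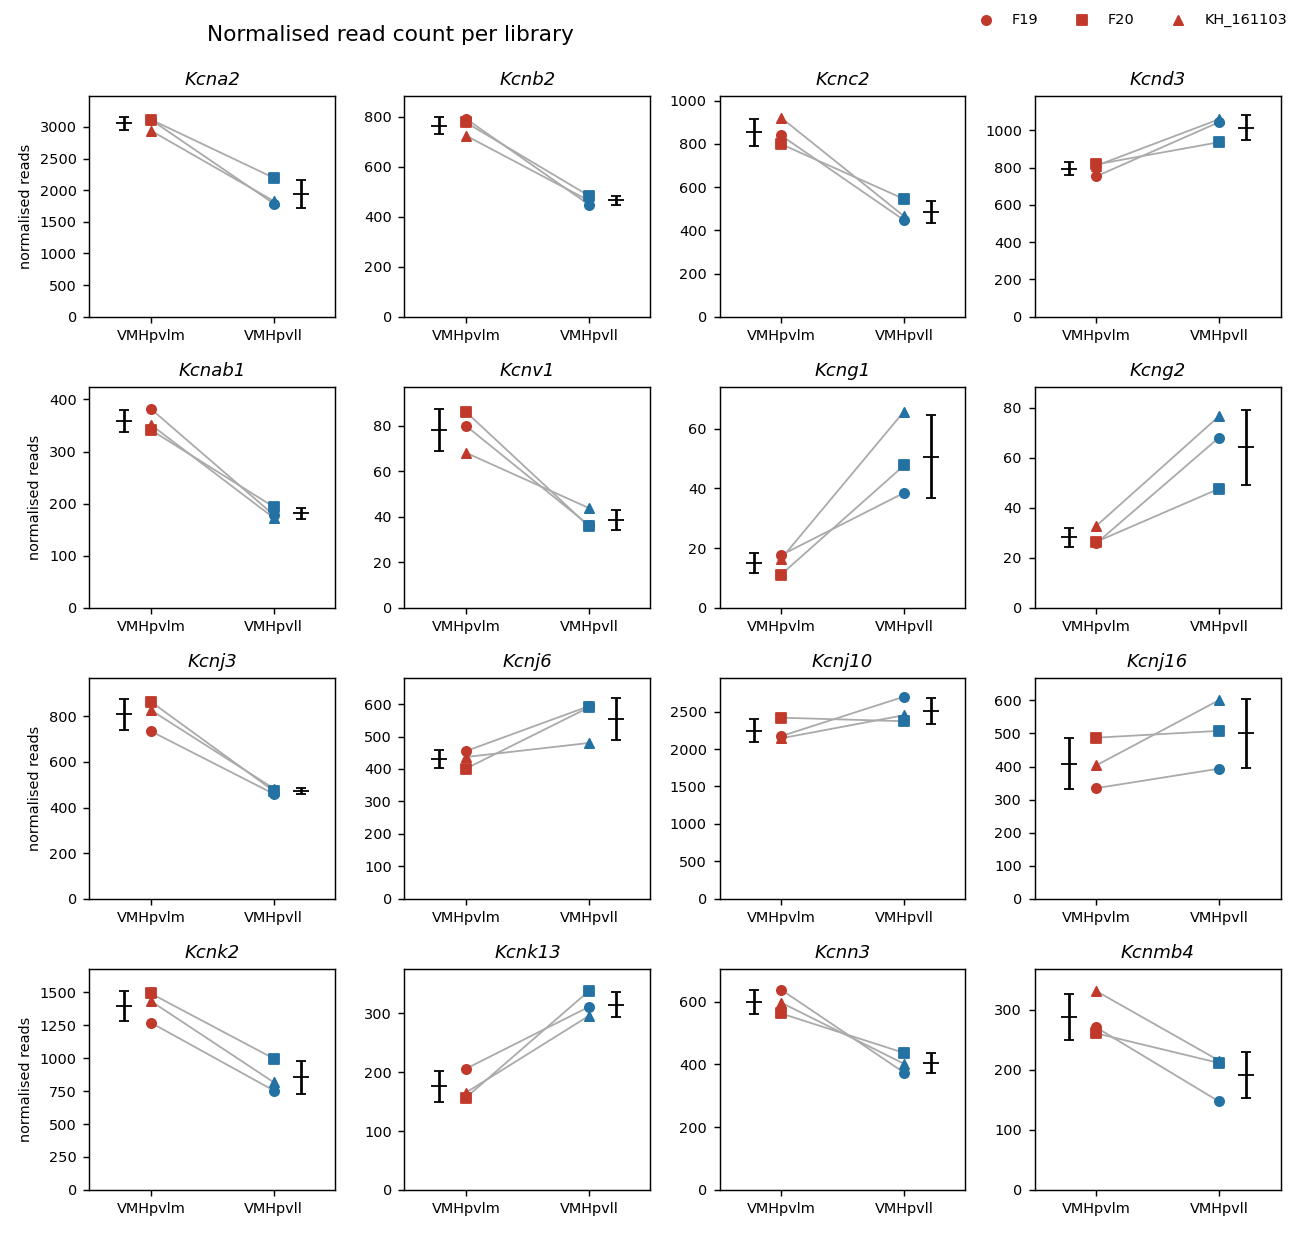
Normalised read count (linear axis from 0) of 16 potassium channel subunits in each library, with grey lines between libraries of the same name and black bars for the mean ± SD of 3 libraries. Kcng1, Kcng2, Kcnk13, Kcnd3 and Kcnj6 were higher in VMHpvll in all 3 pairs, Kcnj10 and Kcnj16 overlapped between the areas, and the other 9 were higher in VMHpvlm in all 3 pairs.

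The electrically silent Kv subunits (Kcnf, Kcng, Kcns and Kcnv) form no channel alone and join Kv2 subunits, whose gating they alter. Of 8 tested members 3 were called higher in VMHpvlm (Kcnf1, Kcns2 and Kcnv1) and 3 higher in VMHpvll (Kcng1, Kcng2 and Kcng3). This was 75.0%, against 20% of all tested genes. The class held the largest fitted log2 differences of the 61 tested subunits in both directions. The 3 called in VMHpvll were all the tested Kcng genes.

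Kcng1 stood at 17.6, 11.1 and 16.3 normalised reads in VMHpvlm and 38.5, 47.7 and 65.7 in VMHpvll. The lowest VMHpvll library was above the highest VMHpvlm library, and the mean was 3.37-fold higher in VMHpvll (limma log2 difference -1.68 ± 0.29 SE, BH-adjusted p = 1.27e-05). Kcng2 stood at 25.7, 26.4 and 32.7 in VMHpvlm and 68.2, 47.7 and 76.7 in VMHpvll. Again the areas did not overlap, and the mean was 2.27-fold higher in VMHpvll (limma log2 difference -1.14 ± 0.23 SE, BH-adjusted p = 0.000196). Kcng3 stood at 23.0, 12.5 and 23.6 in VMHpvlm and 39.6, 38.7 and 38.3 in VMHpvll, where the 3 libraries were nearly equal. It was 1.97-fold higher in VMHpvll (limma log2 difference -0.997 ± 0.29 SE, BH-adjusted p = 0.00878), and without the F20 pair it was not called (log2 difference -0.72, limma adjusted p = 0.121, range over 13 alternatives 0.00762 to 0.24). The Kcng genes were low in both areas, with a summed level per kilobase of 19.1 ± 3.04 in VMHpvlm and 44.6 ± 7.09 in VMHpvll.

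Kcnv1 stood at 79.9, 86.1 and 68.1 normalised reads in VMHpvlm and 36.3, 35.7 and 43.8 in VMHpvll. The areas were well separated, with means of 78.0 ± 9.12 and 38.6 ± 4.52 (SD, n = 3), 2.02-fold higher in VMHpvlm (limma log2 difference 0.996 ± 0.21 SE, BH-adjusted p = 0.000238). Kcnf1 stood at 355, 369 and 337 in VMHpvlm and 243, 239.8 and 219 in VMHpvll, again without overlap and 1.51-fold higher in VMHpvlm (limma log2 difference 0.59 ± 0.09 SE, BH-adjusted p = 2.49e-06). Kcns2 stood at 307, 380.3 and 322 in VMHpvlm and 237, 256 and 211 in VMHpvll and was 1.43-fold higher in VMHpvlm (limma log2 difference 0.52 ± 0.10 SE, BH-adjusted p = 4.69e-05). Its areas did not overlap, and its relatives Kcns1 (-0.61, 95% interval -1.42 to 0.19) and Kcns3 (-0.54, -1.11 to 0.032) were not called (limma adjusted p = 0.321 and 0.201).

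The VMH is marked by the transcription factor Nr5a1, here at a mean of 308 in VMHpvlm and 31.5 in VMHpvll. The DNA just upstream of 2 silent subunit genes called in opposite directions is shown, since 1 stretch holds a word that Nr5a1 binds. The other is marked for another word, so the 2 stretches make no contrast between the directions. Each is the 250 bases before the RefSeq gene start on the GRCm38.p6 assembly, read in the direction of the gene, which lies on the minus strand in both cases. For Kcnf1 (chr12:17176889-17177138, higher in VMHpvlm) the capitals mark the word CAAGGTCA, 76 bases upstream of the start. For Kcng3 (chr17:83631896-83632145, higher in VMHpvll) they mark the GC box GGGCGG on either strand, found 4 times.
Kcnf1: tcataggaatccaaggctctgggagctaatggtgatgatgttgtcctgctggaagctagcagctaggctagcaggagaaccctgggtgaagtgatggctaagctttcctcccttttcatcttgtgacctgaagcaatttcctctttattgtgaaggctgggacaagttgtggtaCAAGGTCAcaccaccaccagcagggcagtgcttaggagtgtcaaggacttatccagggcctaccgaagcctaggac
Kcng3: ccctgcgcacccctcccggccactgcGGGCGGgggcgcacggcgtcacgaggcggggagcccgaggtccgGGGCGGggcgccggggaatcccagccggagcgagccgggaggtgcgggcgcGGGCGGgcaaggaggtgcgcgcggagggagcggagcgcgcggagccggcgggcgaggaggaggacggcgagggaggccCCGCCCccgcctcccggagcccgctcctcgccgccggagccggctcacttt
The Kcnf1 stretch had 51.2% G and C and the Kcng3 stretch 82.4%.

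A promoter of RefSeq was found for 63 of the 85 subunits and for 43 of the 61 tested ones. Searched on both strands, CAAGGTCA stood in 1.33% of 32851 promoters of the mouse genome (438) and in 1 of the 43 tested subunits, Kcnf1. The GC box stood in 32.7% of all promoters and in 28 of the 43 subunits (65.1%), in 11 of 18 called higher in VMHpvlm and 5 of 8 called higher in VMHpvll. The oestrogen response word, GGTCA and its reverse complement TGACC with 3 bases between, stood in 21 promoters of the genome and in 0 of the 43. The share of the genome counts every promoter of 27025 genes, whether or not the gene was tested here. The share of the subunits counts a tested gene once if any of its promoters holds the word. These shares are unlike measures, and no difference between them was tested. A match is a description of the letters in this window and not of a binding site.

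Of 10 tested auxiliary subunits 4 were called higher in VMHpvlm and 1 higher in VMHpvll, with a median log2 difference of 0.36. Kcnab1, a cytoplasmic beta subunit that makes Kv1 channels inactivate, stood at 382, 341 and 351 normalised reads in VMHpvlm and 178, 194 and 173 in VMHpvll. All VMHpvlm libraries were far above all VMHpvll libraries, and the mean was 1.98-fold higher (limma log2 difference 0.98 ± 0.10 SE, BH-adjusted p = 1.22e-10). Kcnab2, a beta subunit that aids the transport of Kv1 channels to the axon, stood at 1563, 1798 and 1697 in VMHpvlm and 1359.8, 1768 and 1555 in VMHpvll, with overlapping areas. Its log2 difference of 0.12 (95% interval 0.020 to 0.21) was not called (limma adjusted p = 0.0839), but it was without the F20 pair (0.0225) and with libraries scaled to the same total (0.0413), the range over 14 alternatives being 0.0225 to 0.564. Per kilobase Kcnab2 was far above Kcnab1 in both areas, at 302 ± 21.1 against 41.7 ± 2.45 in VMHpvlm and 279.8 ± 36.6 against 21.1 ± 1.27 in VMHpvll (SD, n = 3). Kcnab3, a low gene, was not called (0.45, 95% interval -0.15 to 1.05, limma adjusted p = 0.333). Without the F19 pair Kcnab3 passed the threshold (limma adjusted p = 0.042, range over 13 alternatives 0.042 to 0.925).

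The Kcnip genes encode calcium-binding proteins that join Kv4 channels and speed their transport and recovery. Kcnip1 stood at 385, 337 and 337 in VMHpvlm and 259, 276 and 259 in VMHpvll, 1.33-fold higher in VMHpvlm (limma log2 difference 0.41 ± 0.09 SE, BH-adjusted p = 0.000688). Kcnip2 stood at 276, 269 and 305 and 192, 207 and 227, 1.36-fold higher in VMHpvlm (limma log2 difference 0.44 ± 0.10 SE, BH-adjusted p = 0.0009). Neither gene overlapped between the areas, and DESeq2 called neither (adjusted p = 0.0635 for Kcnip1 and 0.0754 for Kcnip2, ranges over 14 alternatives 8.94e-05 to 0.105 and 0.000314 to 0.0754).

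Kcnip3, also known as the transcriptional repressor DREAM, went the other way, at 393, 390.04 and 379 in VMHpvlm and 496, 436 and 482 in VMHpvll. It was 1.217-fold higher in VMHpvll (limma log2 difference -0.28 ± 0.08 SE, BH-adjusted p = 0.00724), without overlap. The call was lost without the F19 pair (limma adjusted p = 0.0615) and without the KH_161103 pair (0.132), the range over 14 alternatives being 0.00136 to 0.173. Kcnip4, the family member with the highest mean read count, stood at 419, 459 and 359 and 519, 471 and 405, with overlapping areas, and was not called (log2 difference -0.17, 95% interval -0.33 to -0.014, limma adjusted p = 0.126). Without the F20 pair Kcnip4 was called (limma adjusted p = 0.0395, range over 14 alternatives 0.0395 to 0.6). The summed level of the family per kilobase was 361 ± 11.7 in VMHpvlm and 364 ± 14.002 in VMHpvll.

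The Kcne genes encode small single-span subunits that join Kv channels, and 2 of 5 were tested. Kcne1l stood at 51.5, 47.2 and 71.8 in VMHpvlm and 35.2, 62.5 and 42.0 in VMHpvll. The areas overlapped, and neither Kcne1l (0.30, 95% interval -0.15 to 0.75, limma adjusted p = 0.403) nor Kcne4 (0.090, -0.65 to 0.83, 0.91) was called.

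Of the 12 tested inward rectifiers (Kcnj) 4 were called higher in VMHpvlm and 3 higher in VMHpvll, with a median log2 difference near 0. The share called in either direction was 58.3%, against 20% of all tested genes. The G protein-gated channels, which open when G protein-coupled receptors release beta-gamma subunits and so carry slow inhibition, are built from Kcnj3, Kcnj5, Kcnj6 and Kcnj9. All 4 were called, Kcnj3, Kcnj5 and Kcnj9 higher in VMHpvlm and Kcnj6 higher in VMHpvll. Kcnj3 and Kcnj9 depend on another subunit, such as Kcnj6, to reach the membrane, while Kcnj6 can form channels alone.

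Kcnj3 stood at 734, 863 and 827 normalised reads in VMHpvlm and 459, 472 and 483 in VMHpvll. The areas were far apart, with means of 808 ± 66.6 and 472 ± 11.7 (SD, n = 3), 1.71-fold higher in VMHpvlm (limma log2 difference 0.77 ± 0.07 SE, BH-adjusted p = 1.68e-12). Kcnj6 stood at 455, 401 and 437 in VMHpvlm and 594, 589.7 and 480.2 in VMHpvll. These did not overlap, and the mean was 1.29-fold higher in VMHpvll (limma log2 difference -0.36 ± 0.08 SE, BH-adjusted p = 0.000499). The ratio of Kcnj6 to Kcnj3 per kilobase was 0.424, 0.317 and 0.361 in VMHpvlm and 0.883, 0.853 and 0.679 in VMHpvll. The areas could not overlap in this ratio, since neither gene overlapped and they differed in opposite directions.

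Kcnj9 stood at 526, 526 and 580.4 in VMHpvlm and 375, 448 and 398 in VMHpvll, 1.34-fold higher in VMHpvlm (limma log2 difference 0.42 ± 0.08 SE, BH-adjusted p = 4.53e-05). Kcnj5, the low member of the group in the brain, stood at 102, 133 and 96.3 in VMHpvlm and 73.7, 53.6 and 51.1 in VMHpvll, 1.86-fold higher in VMHpvlm (limma log2 difference 0.89 ± 0.18 SE, BH-adjusted p = 0.000134). Neither overlapped between the areas. Kcnj9 lies on chromosome 1 of mm10 beside Kcnj10, Kcnj9 at chromosome 1 from 172320501 to 172329318 and Kcnj10 at chromosome 1 from 172341210 to 172374085, and these neighbours were called in opposite directions.

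Kcnj10 and Kcnj16 form the main potassium channel of astrocytes and oligodendrocytes, which clears potassium from the space around active neurons. Kcnj10 stood at 2171, 2418 and 2143 normalised reads in VMHpvlm and 2699, 2371 and 2451 in VMHpvll, and per kilobase it had the highest level of all 85 subunits in both areas (415 ± 28.0 and 464 ± 31.6, SD, n = 3). The areas overlapped, since the F20 pair was slightly higher in VMHpvlm, and the mean was 1.12-fold higher in VMHpvll (limma log2 difference -0.16 ± 0.05 SE, BH-adjusted p = 0.0147). The call was lost without the F19 pair (log2 difference -0.083, limma adjusted p = 0.383), without the KH_161103 pair (0.186) and without the block (0.12), the range over 14 alternatives being 5.62e-06 to 0.403.

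Kcnj16 stood at 335, 487 and 403 in VMHpvlm and 394, 508 and 601 in VMHpvll. It was higher in VMHpvll in each pair although the areas overlapped, by 1.23-fold in the mean (limma log2 difference -0.29 ± 0.08 SE, BH-adjusted p = 0.00918). Without the KH_161103 pair Kcnj16 was not called (log2 difference -0.15, limma adjusted p = 0.443), nor without the block (0.462), the range over 14 alternatives being 0.000105 to 0.462. Of the marker lists given above, limma also called 9 of 10 oligodendrocyte and 4 of 10 astrocyte markers higher in VMHpvll. DESeq2 called 7 and 4 of these lists, and their part in these differences was not tested.

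The strong inward rectifiers, which hold neurons and muscle cells at a negative resting potential, are Kcnj2, Kcnj4, Kcnj12 and Kcnj14. Kcnj4 was called, at 50.1, 75.0 and 53.6 in VMHpvlm and 25.3, 29.8 and 40.2 in VMHpvll. The areas did not overlap, and the mean was 1.88-fold higher in VMHpvlm (limma log2 difference 0.89 ± 0.23 SE, BH-adjusted p = 0.00399). Without the F20 pair it was not called (log2 difference 0.68, limma adjusted p = 0.0773, range over 13 alternatives 0.00222 to 0.172). Kcnj2, Kcnj12 and Kcnj14 were not called, with log2 differences of 0.10, -0.11 and 0.16. The pores of the ATP-sensitive channels, which close when a cell is rich in energy, were not called either. Kcnj11 had a log2 difference of -0.30 (95% interval -0.77 to 0.17) and Kcnj8, found in vessel walls, one of -0.57 (-1.46 to 0.31), intervals that leave room for differences as large as those of many called subunits.

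**Figure D3:**
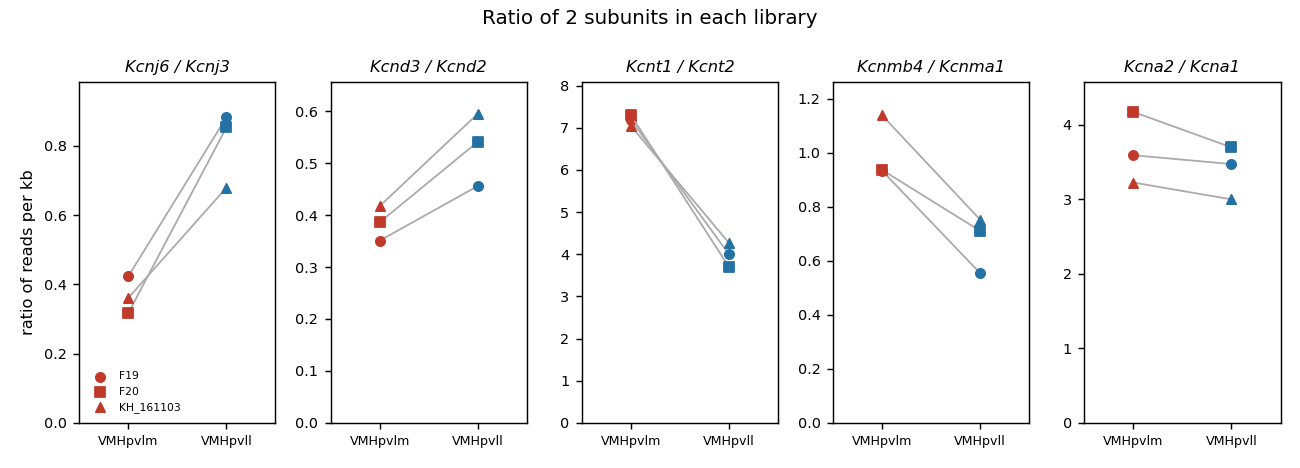
Ratio of normalised reads per kilobase of exon of 2 subunits in each library (linear axes from 0), with a grey line joining the libraries that share a name. The areas overlapped for Kcna2 over Kcna1 and did not for the other 4 ratios, of which Kcnj6 over Kcnj3 and Kcnd3 over Kcnd2 were higher in VMHpvll. For Kcnj6 over Kcnj3 and Kcnt1 over Kcnt2 this follows from the lack of overlap of both genes in opposite directions.

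The two-pore subunits (Kcnk) carry leak current, and 2 of 9 tested members were called, 1 in each direction. This share of 22.2% was close to the 20% of all tested genes called in either direction. Kcnk2, a channel opened by membrane stretch, lipids and warmth, stood at 1269, 1491 and 1433 normalised reads in VMHpvlm and 754, 996 and 816 in VMHpvll. All VMHpvlm libraries were above all VMHpvll libraries, and the mean was 1.63-fold higher (limma log2 difference 0.71 ± 0.06 SE, BH-adjusted p = 4.61e-14). Kcnk13, a channel blocked by halothane that sets the resting potential of microglia, stood at 206, 157 and 165 in VMHpvlm and 311, 338 and 296 in VMHpvll. Here every VMHpvll library was above every VMHpvlm library, and the mean was 1.79-fold higher in VMHpvll (limma log2 difference -0.84 ± 0.11 SE, BH-adjusted p = 2.73e-08). The summed level of 10 microglia markers was 1279 to 1394 in VMHpvlm and 1366 to 1527 in VMHpvll, and their part in the difference of Kcnk13 was not tested.

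The other 7 two-pore genes were not called by limma. Among the acid-sensitive channels Kcnk3 had a log2 difference of 0.090 (95% interval -0.14 to 0.32) and Kcnk9 one of 0.053 (-0.22 to 0.32). Kcnk1, the founding member, had -0.037 (-0.22 to 0.14), and Kcnk10, a close relative of Kcnk2, had -0.038 (-0.28 to 0.20). The intervals of these 4 exclude a difference of the size seen for Kcnk2. The low genes Kcnk12, with 0.38 (-0.30 to 1.06), and Kcnk4, with 0.21 (-0.49 to 0.91), had intervals that include it, and Kcnk6, with -0.066 (-0.75 to 0.62), an interval about as wide.

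Of 7 tested channels opened by calcium or sodium 2 were called higher in VMHpvlm and 1 higher in VMHpvll. Kcnn3, a small-conductance calcium-activated channel that contributes to the after-hyperpolarisation following a spike, stood at 638, 562 and 597 in VMHpvlm and 374, 436 and 402 in VMHpvll. The areas did not overlap, and the mean was 1.48-fold higher in VMHpvlm (limma log2 difference 0.57 ± 0.08 SE, BH-adjusted p = 1.46e-07). Its relatives Kcnn1 (-0.088, 95% interval -0.49 to 0.31) and Kcnn2 (0.069, -0.15 to 0.28) were not called (limma adjusted p = 0.825 and 0.728).

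The large-conductance calcium-activated channel has Kcnma1 as its pore and Kcnmb4 as its main beta subunit in neurons, which slows its gating. Kcnma1 stood at 1482, 1423 and 1487 in VMHpvlm and 1358, 1519 and 1462 in VMHpvll. The areas overlapped, and the log2 difference of 0.019 had a 95% interval of -0.083 to 0.12 (limma adjusted p = 0.858). Kcnmb4 stood at 271, 261 and 332 in VMHpvlm and 147, 211 and 215 in VMHpvll, and its areas did not overlap. Its mean was 1.504-fold higher in VMHpvlm (limma log2 difference 0.60 ± 0.11 SE, BH-adjusted p = 3.4e-05). The ratio of Kcnmb4 to Kcnma1 per kilobase was 0.934, 0.937 and 1.14 in VMHpvlm and 0.554, 0.711 and 0.752 in VMHpvll.

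The sodium-activated channels Kcnt1 and Kcnt2 were called in opposite directions. Kcnt1 stood at 939, 768 and 793 in VMHpvlm and 727, 645 and 671 in VMHpvll, 1.224-fold higher in VMHpvlm (limma log2 difference 0.29 ± 0.06 SE, BH-adjusted p = 0.000449). Kcnt2 stood at 94.8, 76.3 and 81.7 in VMHpvlm and 132, 127 and 114 in VMHpvll, 1.47-fold higher in VMHpvll (limma log2 difference -0.56 ± 0.15 SE, BH-adjusted p = 0.00518). Neither overlapped between the areas, and DESeq2 did not call Kcnt2 (adjusted p = 0.178, range over 14 alternatives 0.00324 to 0.178). The ratio of Kcnt1 to Kcnt2 per kilobase was 7.19, 7.30 and 7.04 in VMHpvlm and 3.998, 3.70 and 4.27 in VMHpvll. Its lack of overlap follows from that of both genes in opposite directions. Kcnu1, the pore of a channel known from sperm, was low at 21.7, 9.72 and 13.6 and 16.5, 11.9 and 21.9 and was not called (-0.18, 95% interval -0.94 to 0.57, limma adjusted p = 0.807).

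Compared per kilobase of exon, the 5 most abundant subunits were the same in both areas. In VMHpvlm their order was Kcnj10, Kcnab2, Kcnk2, Kcna2 and Kcnd2, with 415 ± 28.0, 302 ± 21.1, 283 ± 23.3, 257 ± 8.46 and 216 ± 11.6 normalised reads per kilobase (SD, n = 3). In VMHpvll it was Kcnj10, Kcnab2, Kcnd2, Kcnk2 and Kcna2, with 464 ± 31.6, 279.8 ± 36.6, 202 ± 32.3, 173 ± 25.5 and 163 ± 18.8. In VMHpvlm Kcnk2 differed from its neighbours Kcnab2 and Kcna2 by less than the sum of the SDs, as did Kcnd2, Kcnk2 and Kcna2 from each other in VMHpvll.

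**Figure D4:**
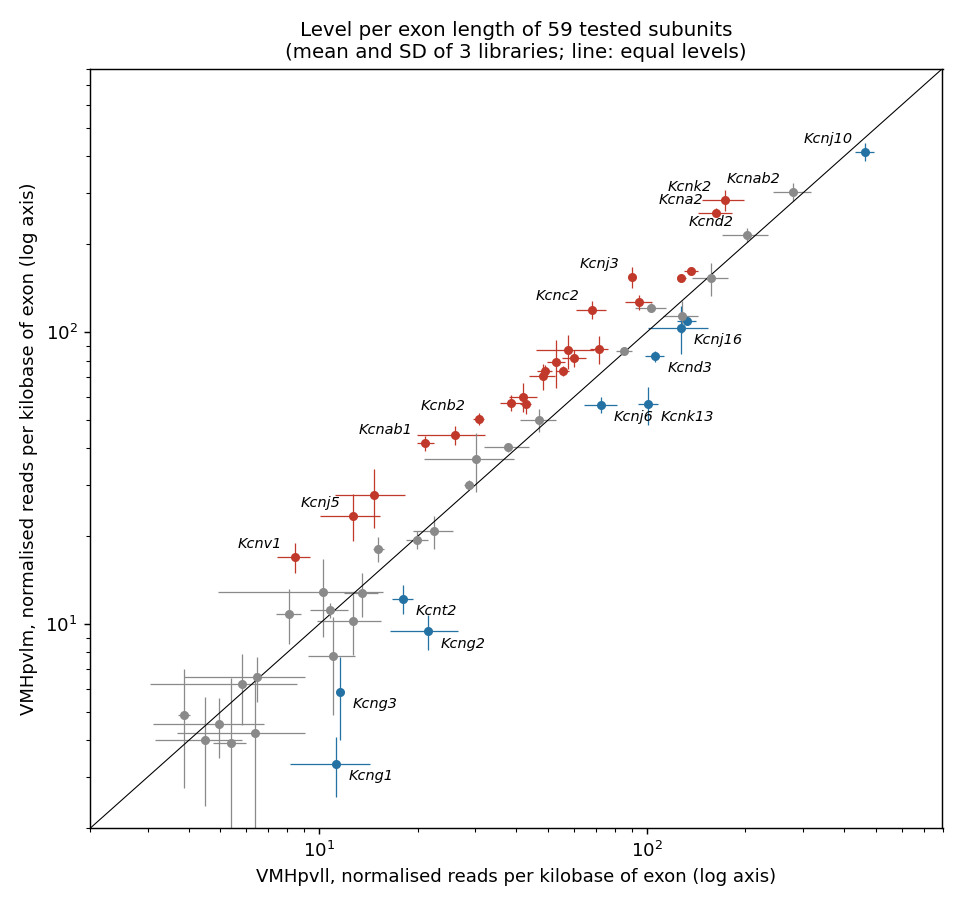
Level of 59 of the 61 tested subunits in VMHpvll (horizontal) and VMHpvlm (vertical), in normalised reads per kilobase of annotated exon on log axes, as mean ± SD of 3 libraries. Red marks subunits called higher in VMHpvlm, blue those called higher in VMHpvll and grey those without a call, and the diagonal marks equal levels, from which Kcng1 lies farthest.

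Strand use in counting is not given, so reads from overlapping genes cannot be told apart. Of the 35 called subunits 12 share exon bases with another annotated gene, and large shares were found for Kcna6, Kcnmb4, Kcnj3 and Kcnk2. The share was 39.6% of Kcna6 with Gm26673 (mean 9.998 in VMHpvlm and 8.25 in VMHpvll), 31.5% of Kcnmb4 with its antisense RNAs, 31.1% of Kcnj3 with Gm26794 (25.8 and 29.0) and 12.2% of Kcnk2 with A430027H14Rik (18.4 and 9.98). The antisense RNA Kcnmb4os2 had 11.7 and 7.49 normalised reads. The listed levels of these partners were low beside those of the subunits. They do not show how reads on the shared bases were assigned, so the number of reads affected is not known. Levels and ratios per kilobase use all exon bases, shared ones included.

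The 24 subunits below the limit for testing were at low values. Kcna7, Kcnj13, Kcnk15, Kcnk16 and Kcnk18 had no read in any library. The other 19 were Kcna10, Kcnab3os, Kcnd3os, Kcne1, Kcne2, Kcne3, Kcng4, Kcnj1, Kcnj15, Kcnk5, Kcnk7, Kcnmb1, Kcnmb2, Kcnmb3, Kcnmb4os1, Kcnmb4os2, Kcnn4, Kcnrg and Kcnv2, and the highest value in any library was 14.9 normalised reads, of 16 reads, for Kcnmb4os2. Kcnj15 stood at 0, 0 and 0 in VMHpvlm and 5.50, 2.98 and 0.913 in VMHpvll, at or near the level of 3 reads. Without the filter on the mean, limma tested these 19 and called 0, with 1 at an unadjusted p below 0.05; edgeR and DESeq2 were run with the filter only. Of the 26 tested subunits that were not called, 11 had a mean below 50 normalised reads and 15 a mean of 50 or more.

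A list of 29 proteins that bind, cluster or gate these channels, also chosen with earlier results known, was read from the same fit. Of 26 tested genes 6 were called higher in VMHpvlm and 6 higher in VMHpvll, with a median log2 difference of 0.06. In either direction 46.2% were called, against 20% of all tested genes (10.5% higher in VMHpvlm and 9.48% higher in VMHpvll). Among the proteins that gather Kv1 channels on axons, Lgi1, a secreted protein that binds Adam22 and Adam23, had means of 614 ± 19.8 in VMHpvlm and 414 ± 36.4 in VMHpvll (limma log2 difference 0.57 ± 0.08 SE, BH-adjusted p = 6.61e-08). Its receptor Adam23 had means of 2434 ± 93.7 and 1888 ± 153 (limma log2 difference 0.37 ± 0.04 SE, BH-adjusted p = 5.51e-09). The adhesion protein Cntnap2 (limma log2 difference -0.18 ± 0.05 SE, BH-adjusted p = 0.00379) and the scaffold Dlg2 (limma log2 difference -0.13 ± 0.04 SE, BH-adjusted p = 0.0232) were called higher in VMHpvll, and the membrane skeleton protein Epb41l3 higher in VMHpvlm (limma log2 difference 0.12 ± 0.04 SE, BH-adjusted p = 0.0371). Cntnap1, Cntn2, Dlg1, Dlg4 and Adam22 were not called. Cntnap2 was lost without the F20 pair (limma adjusted p = 0.146), Dlg2 without F20 or KH_161103 (0.196 and 0.136) and Epb41l3 without F19 or KH_161103 (0.576 and 0.285). Over the 14 alternatives the adjusted p ran from 0.0011 to 0.298 for Cntnap2, from 0.0108 to 0.341 for Dlg2 and from 0.000103 to 0.576 for Epb41l3.

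Dpp10, an auxiliary protein of Kv4 channels, had means of 2321 ± 43.8 in VMHpvlm and 1821 ± 116 in VMHpvll (limma log2 difference 0.35 ± 0.04 SE, BH-adjusted p = 2.4e-08), opposite in direction to Kcnd3, and its relative Dpp6 was not called. Lrrc55, an auxiliary gamma subunit of the Kcnma1 channel, had means of 116 ± 4.99 and 168 ± 8.36 (limma log2 difference -0.53 ± 0.13 SE, BH-adjusted p = 0.00184), opposite to Kcnmb4. DESeq2 did not call Lrrc55 (adjusted p = 0.0975, range over 14 alternatives 0.000856 to 0.0975). Its relatives Lrrc26, Lrrc38 and Lrrc52 were below the limit for testing. Of the calmodulin genes, the calcium sensor of Kcnn channels, Calm3 (limma log2 difference 0.14 ± 0.03 SE, BH-adjusted p = 0.000571) was called higher in VMHpvlm, and Calm2 was not called. Without the KH_161103 pair Calm3 was not called (limma adjusted p = 0.118, range over 14 alternatives 9.46e-06 to 0.31).

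Of the G protein subunits that open Kcnj3, Kcnj6 and Kcnj9 channels, Gnb2 (limma log2 difference -0.23 ± 0.06 SE, BH-adjusted p = 0.00318) and Gng3 (limma log2 difference -0.28 ± 0.05 SE, BH-adjusted p = 5.1e-05) were called higher in VMHpvll, and Gnb1, Gnb4 and Gng2 were not called. Without the F19 pair Gnb2 was not called (limma adjusted p = 0.0538, range over 14 alternatives 0.00149 to 0.195). The sulfonylurea receptor Abcc9, which pairs with Kcnj8 in vessel walls, was called higher in VMHpvll (limma log2 difference -0.47 ± 0.17 SE, BH-adjusted p = 0.0422), and Abcc8, which pairs with Kcnj11 in neurons, was not. Without the F19 or the KH_161103 pair Abcc9 was not called (limma adjusted p = 0.123 and 0.543, range over 14 alternatives 0.00213 to 0.543). Of the endothelial and mural markers 6 of 10 were also called higher in VMHpvll by limma, and 2 of 10 were called by DESeq2, and their part in this difference was not tested. Amigo1, Vapa and Vapb, which gather Kv2 channels at the cell body, were not called.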

How the data were processed

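RNA from laser-captured VMHpvlm and VMHpvll (frozen coronal sections, PicoPure extraction, SMARTer stranded total RNA kit, per the labels' protocols) was sequenced in 6 libraries. The submitters' processing notes name HISAT2, featureCounts and mm10. For the authors' annotation, scaling tool and strand setting the entry is: not given in the sources used here. What the authors deposited is a normalised signal, that is, read counts over 1 factor per library: 100% of non-zero values were whole multiples of 1 read within a tolerance of 0.05 reads, so whole reads were recovered. With those reads edgeR called 24 and 11 subunits.

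The test was limma 3.58.1 (lmFit, eBayes with trend and robust; R 4.3.3) on log2(value + 1) of the 14522 genes whose mean reached 10, with region and pair name as terms, two-sided, Benjamini-Hochberg over all tested genes and a threshold of 0.05. Log2 differences carry the pseudocount of 1 and so are too small for low genes; a fold is the ratio of both means. Residual degrees of freedom were 2 and the prior's median 39.9.

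Pairs come from names shared by the titles, which do not say that a name is 1 animal. The KH_161103 titles end in C and D, and their region comes from the source label. Deviations from the area mean correlated by 0.26, 0.24 and 0.36 within names and by -0.25 to 0.01 between names. The deviations of an area cancel out for each gene, so the values between names are not independent of those within names. The p-values measure only the spread between these libraries, which may be technical. Replicates of an area differed by more than counting noise (chi-square per degree of freedom 5.80 to 10.4).

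Members and lists were chosen with earlier results of these data known. Library values are given for the 12 called subunits with the largest differences per direction, the member with the highest mean in each subfamily and up to 3 called members by p. Some genes that this rule names are not reported here. Partner genes named with values were the called ones, up to 8 per direction. Exon lengths and positions are from GENCODE M21, promoters from RefSeq GRCm38.p6. The 14 alternatives were the fit without the block, pair name as a random effect, a pseudocount of 0.5 or 5, no filter, a mean of 50, equal totals, equal upper quartiles, another variance prior, count tests of the recovered reads (edgeR 4.0.16, DESeq2 1.42.0), and leaving out each of 3 pairs.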

Additional observations from a re-analysis of the deposited data

How the results depend on the processing

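The titles pair the libraries by name. Without the replicate block, limma called 24 potassium channel subunits higher in VMHpvlm and 8 higher in VMHpvll (24 and 11 with it), 937 and 863 of all tested genes (1528 and 1377) and 4 and 3 partner genes (6 and 6); the block changed the calls on 3 subunits, Kcnj10 and Kcnj16 among them. With a variance prior without trend and robust fitting the counts were 5 and 1 subunits, 189 and 233 genes, and 0 and 0 partner genes (5 and 3 at an unadjusted limma p below 0.05). DESeq2 called 19 and 5 subunits, 648 and 582 genes, and 4 and 1 partner genes, and edgeR called 24 and 11 subunits. Leaving out 1 pair at a time gave 24 to 26 and 7 to 10 subunits, 935 to 1511 and 838 to 1361 genes, and 4 to 8 and 4 to 4 partner genes; the lowest counts of subunits and genes came without the KH_161103 pair. Scaled to the same total, 25 and 9 subunits and 1750 and 1220 genes were called, and the median of all tested genes moved to 0.03 on the log2 scale. Outside the prior and DESeq2, 29 of the 35 called subunits kept their call under every alternative they entered, and 6 did not, among them Kcng3, Kcnip3, Kcnj4, Kcnj10 and Kcnj16. No called subunit or partner gene changed direction under the 14 alternatives. Among those not called, the log2 difference changed sign when a pair was left out for Kcnab3 (-0.059 to 0.96), Kcne4 (-0.36 to 0.38), Kcnj14 (-0.020 to 0.29), Kcnk1 (-0.094 to 0.073), Kcnk10 (-0.082 to 0.041), Kcnk4 (-0.057 to 0.64), Kcnk6 (-0.38 to 0.20), Kcnk9 (-0.047 to 0.16), Kcnma1 (-0.035 to 0.075), Kcnn1 (-0.25 to 0.084) and Kcnu1 (-0.46 to 0.053). Apart from the fewer samples or genes of some alternatives, the cause of these changes was not tested. Of the 24 subunits left out by the filter on the mean, the 19 with a read were tested without it, and limma called 0 of them (1 at an unadjusted p below 0.05).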
